A study of Mus musculus with 85 samples.

Results

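The imprinted Dlk1-Dio3 region of mouse chromosome 12 encodes one of the largest miRNA clusters of the genome, and its mature miRNAs were followed here in hearts from a panel of inbred mouse strains, the HMDP (Hybrid Mouse Diversity Panel), which differ in genotype. The members were 43 rows of the deposited table, chosen by name as miRNAs of the maternally expressed transcripts of the locus, out of 1977 mature miRNA rows in all. All 85 samples were hearts of female mice, 16 weeks old, kept on chow for 8 weeks and afterwards, for 8 more, on a diet rich in fat and sucrose (HF/HS), with 1 small RNA library per heart. The strain of each animal was not used here, so there was 1 group and no contrast between genotypes or diets. The question asked of the data was how much of the heart's miRNA pool the cluster made up, which of its members were detected, and whether its level differed between hearts by more than counting error.

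In this region the paternal chromosome expresses the protein-coding genes Dlk1, Rtl1 and Dio3. The maternal chromosome expresses long noncoding RNAs, among them Meg3, Rian, Mirg and a transcript opposite Rtl1, from which miRNAs and small nucleolar RNAs are processed. The miRNAs are known for high levels in embryo, placenta and brain and for lower levels in most adult tissues, and those opposite Rtl1 are fully complementary to the Rtl1 mRNA.

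The mature sequences of the members with the most counts, and of the antisense pair of miR-136, are shown because the results below rest on them. A RefSeq mature sequence (GRCm38.p6) was matched for 40 of the 43 members. MiR-376c-3p, miR-485-5p and miR-487b-3p had no entry. Sequences run 5′ to 3′, and capitals mark the seed, bases 2 to 8, the stretch that pairs first with a target.

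mmu-miR-127-3p: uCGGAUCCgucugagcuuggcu

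mmu-miR-379-5p: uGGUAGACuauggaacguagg

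mmu-miR-411-5p: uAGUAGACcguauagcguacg

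mmu-miR-136-5p: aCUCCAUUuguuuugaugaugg

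mmu-miR-136-3p: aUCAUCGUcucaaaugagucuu

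mmu-miR-541-5p: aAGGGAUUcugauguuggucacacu

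mmu-miR-154-5p: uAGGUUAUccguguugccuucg

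mmu-miR-300-3p: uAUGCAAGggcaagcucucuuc

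mmu-miR-381-3p: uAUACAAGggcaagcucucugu

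mmu-miR-3071-5p (opposite miR-136): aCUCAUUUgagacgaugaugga

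mmu-miR-3071-3p (opposite miR-136): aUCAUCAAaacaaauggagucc

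No seed was shared between any of the matched members. MiR-379-5p and miR-411-5p, from neighbouring hairpins, differed at 7 of 21 positions counted from the 5′ end, and 1 of those, G2A (the base of miR-379-5p first), lay in the seed. MiR-300-3p and miR-381-3p differed at 3 positions, with G4A in the seed, and miR-376a-3p and miR-376b-3p also differed at 3 positions with G4A in the seed. No other RefSeq mature entry had the full sequence of any matched member. Rows of the table without an entry were not compared. Of the rows with counts, 463 of 548 had an entry, as did 1215 of the 1429 with no count. Outside the locus, miR-362-3p with 18 counts carried the seed of miR-329-3p, which had 4.

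The libraries were shallow. They held 1457 to 30202 counts each (median, 12248) and 1142199 together, and 548 of the 1977 rows had a count. The 4 cardiomyocyte markers (miR-1a-3p, miR-133a-3p, miR-208a-3p and miR-499-5p) held 23.02% of all counts, and miR-206-3p, a skeletal muscle miRNA, had 1 count. The row with the most counts, miR-1b-5p (251291), was not among these markers, and the library totals include it. The expression of 51 abundant miRNAs, none of them a member of the cluster, divided the libraries along a first principal component (75.01% of the variance) into a set A of 58 and a set B of 27. These sets come from the data and are not named in the labels, but they follow the library numbers in blocks. Set B held libraries 1 to 10, 15 to 18, 20 to 21 and 49 to 59, and library number has the same order as animal number, so a set, a stretch of libraries and a stretch of animals cannot be told apart. Values are given over all libraries and within each set. The miRNAs of the locus were summed per library and expressed as CPM, the counts per 1000000 counts of the library.

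The Dlk1-Dio3 cluster was a minor part of the heart miRNA pool. The 43 rows summed to 579 counts, or 0.0507% of all counts (95% Wilson interval, 0.0467% to 0.0550%), which is 507 CPM. Intervals cover counting error only, since it is not given in the sources used here whether the molecular identifiers of the library kit were used. Per library the sum ran from 0 to 16 counts (median, 6, with quartiles of 4 and 9) and from 0 to 1041 CPM (median, 503; SD, 214; n = 85). The library with no member count, number 14, was also the shallowest, with 1457 counts. In a single library a count of 0 allows a level of up to 99.3 to 2059 CPM (3 counts, median over libraries 245 CPM), so most members could not be told from absent in any one heart. Since these were whole hearts, fewer cells of a type and less miRNA per cell cannot be told apart.

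Of the 43 members, 28 (65.1%) had a count in any library, where 27.7% of all rows in the table had one. Of these, 25 members had at least 3 counts, 12 had 10 or more, 2 had a mean of 1 or more a library, and 0 had a mean of 5. A library held 0 to 10 members with a count (median, 5), and the number to be had from the pooled shares at each library's depth was 0.713 to 8.86 (median, 4.78). In 3000 counts drawn from each of the 84 libraries that had that many, between 0.297 and 2.70 members would have been seen (median, 1.42). The observed numbers lay near those expected at each depth. The pooled shares come from these same counts, so this nearness is partly built in and is a description only.

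The 15 members with no count were miR-323-3p, miR-341-3p, miR-370-3p, miR-380-3p, miR-409-5p, miR-410-3p, miR-485-5p, miR-485-3p, miR-487b-3p, miR-493-5p, miR-539-5p, miR-540-3p, miR-665-3p, miR-667-3p and miR-668-3p. A count of 0 over all libraries allows a level of up to 2.63 CPM. MiR-410-3p, which has been studied for the growth of neonatal cardiomyocytes, was among them, and miR-495-3p, studied for the same, had 2 counts. MiR-134-5p, known from neuronal dendrites, had 4 counts. The members at 0 had a median GC content of 54.5% and those with counts 45.5%, and the medians over all rows of the table were the same, 54.5% and 45.5%.

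Counts were concentrated in few members. The 4 leading miRNAs, miR-127-3p, miR-379-5p, miR-411-5p and miR-136-5p, held 313 counts (54.1% of the cluster), and the 12 leading ones held 510 (88.1%). MiR-127-3p ranked 139 among all rows of the table.

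MiR-127-3p comes from the hairpin Mir127 (GRCm38 chr12:109592846-109592915, plus strand), which lies in an exon of Rtl1 on the opposite strand. It had 105 counts, or 91.9 CPM (75.9 to 111). It had 0 to 5 counts a library (median, 1). It was at 0 in 32 libraries, at 1 in 25, at 2 in 11 and at 3 or more in 17, and the highest values were in libraries 9 and 53. This was the member found at 3 or more counts in the most hearts.

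MiR-379-5p comes from Mir379 (chr12:109709060-109709125, plus strand), the first hairpin of the group ahead of Mirg, between the annotated host genes. It had 95 counts, or 83.2 CPM (68.05 to 102), with 0 to 5 a library (median, 1). It was at 0 in 28 libraries, at 1 in 36, at 2 in 10 and at 3 or more in 11, with the highest value in library 74. MiR-379-5p was thus seen in 57 hearts and miR-127-3p in 53.

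MiR-411-5p comes from the neighbouring Mir411 (chr12:109710175-109710256, plus strand). It had 61 counts, or 53.4 CPM (41.6 to 68.6), with 0 to 4 a library (median, 1), and was at 0 in 42 libraries. MiR-136-5p comes from Mir136 (chr12:109595327-109595388, plus strand), opposite Rtl1 like Mir127. It had 52 counts, or 45.5 CPM (34.7 to 59.7), with 0 to 4 a library (median, 0), and was at 0 in 51 libraries. The intervals of miR-127-3p and miR-379-5p overlapped, as did those of miR-411-5p and miR-136-5p, so neither pair can be ordered at this depth.

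The next 8 members ran from 38 counts to 14 and had a median of 0 in a library. MiR-541-5p had 38 counts in 28 libraries and reached 2 in 10 of them. MiR-154-5p had 31 counts in 26 libraries, with 3 in library 50. MiR-136-3p had 30, miR-434-3p 22, miR-381-3p 21, miR-434-5p 21, miR-382-5p 20 and miR-299a-5p 14. The remaining 16 members with counts had 2 to 9 each. MiR-300-3p had 9, miR-376b-3p and miR-431-5p 7 each, miR-337-3p 6, miR-369-3p and miR-376a-3p 5 each, miR-329-3p and miR-409-3p 4 each like miR-134-5p, miR-337-5p, miR-376c-3p, miR-433-3p and miR-494-3p 3 each, and miR-377-3p and miR-543-3p 2 each like miR-495-3p. Levels this low show that a member was counted in some heart and little more.

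**Figure D1:**
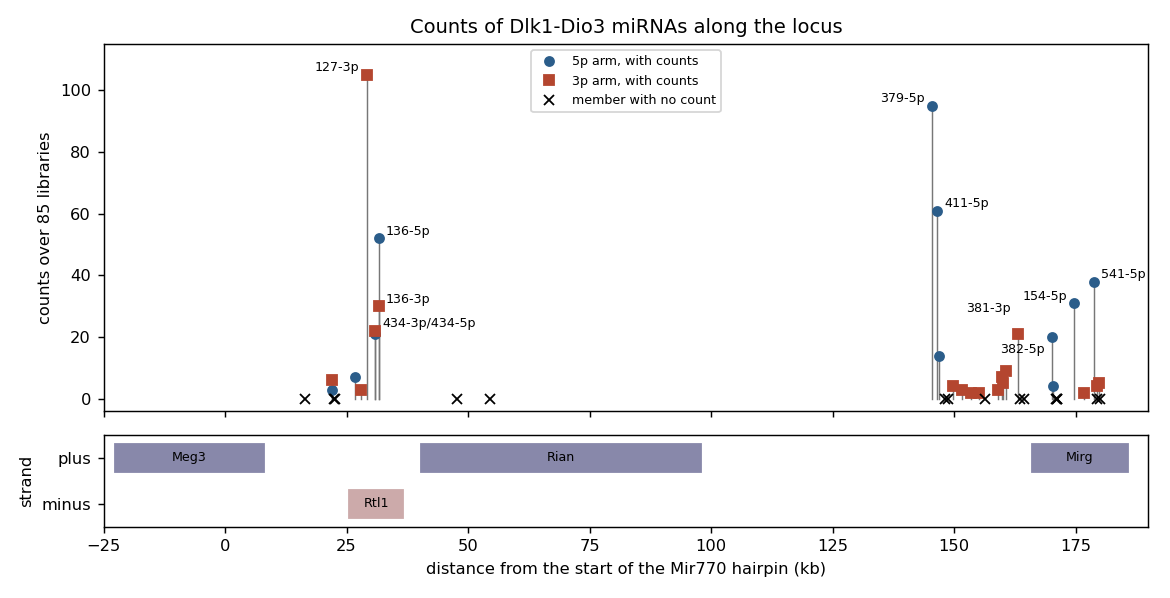
Counts of each member summed over the 85 libraries (vertical axis) against its hairpin's distance in kb from the start of the Mir770 hairpin (horizontal axis), with circles for 5p arms, squares for 3p arms, crosses for members with no count, and the annotated Meg3, Rian and Mirg (plus strand) and Rtl1 (minus strand) below. Counts fall in 2 groups, around miR-127-3p (105) opposite Rtl1 and from miR-379-5p (95) to miR-541-5p (38) up to and within Mirg, with crosses in Rian.

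Along the locus, members with counts lay in 2 stretches, as the map of counts along the locus shows. In the GRCm38 annotation Meg3 spans chr12:109541001-109571726, Rtl1 chr12:109589193-109600330, Rian chr12:109603940-109661716 and Mirg chr12:109729764-109749460. All 7 members opposite Rtl1 had counts, and they summed to 240 (0 to 9 a library, median, 3). Of the 12 members within Mirg, 7 had counts and these summed to 104 (0 to 5 a library, median, 1). Between the host genes, 12 of the 17 members of the stretch ahead of Mirg had counts, 226 in all, and 2 of the 5 members between Meg3 and Rtl1 had 9. Both members within Rian, miR-341-3p and miR-370-3p, were at 0.

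Members were also summed over the Meg3 end (14 members up to Rian, 249 counts) and the Mirg end (29 members, 330 counts). Across hearts the log2 CPM of the one sum against the other gave Pearson's r = 0.0038 and Spearman's rho = 0.031 (n = 85), r = 0.060 in set A and r = -0.180 in set B. Both sums come from the same library and share its total, and they held about 3 and 4 counts per library at the median. Their chi-square against library totals was 1.21 and 0.994 per degree of freedom, where counting error alone gives 1. Even a strong relation could therefore have gone unseen. The coefficients are a description with no test.

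For 5 hairpins both arms were members. Of the miR-136 counts, 36.6% were from the 3p arm (26.98% to 47.4%; 30 against 52), so both arms were present and the 5p arm was the more frequent. MiR-434 was split nearly evenly, with 51.2% from the 3p arm (36.8% to 65.4%; 22 against 21). MiR-337 had 66.7% from the 3p arm (35.4% to 87.9%; 6 against 3), an interval that allows either arm to lead. All 4 miR-409 counts were of the 3p arm, and miR-485 had none.

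For other hairpins the partner arm was in the table but not among the members. The leading hairpins were nearly one-armed: miR-127 gave 96.3% 3p (90.9% to 98.6%), miR-379 gave 3.06% 3p (1.05% to 8.62%), and miR-411 gave 61 counts of the 5p arm with 0 of the 3p arm, which allows a 3p share of up to 5.92%. For miR-376b and miR-329 the arm that is not a member had more counts. There were 25 counts of miR-376b-5p and 7 of miR-376b-3p, or 21.9% 3p (11.02% to 38.8%), and 11 of miR-329-5p and 4 of miR-329-3p, or 26.7% 3p (10.9% to 51.95%). MiR-376b-5p differs only by G19U from miR-376c-5p, which had 0 counts. How the authors' counting assigned reads of this family was not tested. MiR-299a was mixed as well, with 44% 3p (26.7% to 62.9%; 11 against 14).

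The hairpin Mir136 has an annotated partner on the opposite strand, Mir3071. MiR-3071-3p (7 counts) overlaps miR-136-5p (52 counts) by 20 bases, and miR-3071-5p (15 counts) overlaps miR-136-3p (30 counts) by 19. The strand setting of the counting is not given in the sources used here, so reads of these pairs cannot be told apart with certainty. The antisense partners of miR-299a (miR-299b) and miR-337 (miR-3544) were at 0.

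**Figure D2:**
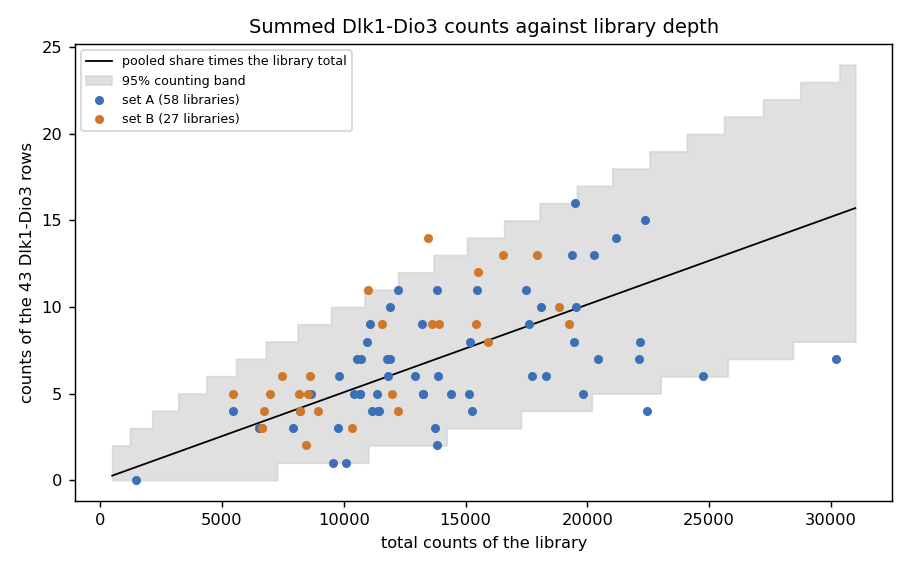
Summed counts of the 43 rows in each library (vertical axis) against the library's total counts (horizontal axis), with set A (58 libraries) and set B (27 libraries) in 2 colours, the pooled share as a line and the central 95% of Poisson counts around it as a band. The sums rise with depth, and 82 of the 85 libraries lie within the band.

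The sum of the cluster varied between hearts by little more than counting error. Its chi-square against the library totals was 96.3 with 84 degrees of freedom, or 1.15 per degree of freedom, where counting error alone gives 1 with an SD of 0.154. The coefficient of variation left after counting error was 14.7% (95% interval from the chi-square, 0% to 29.5%). It was 5.34% with effective library sizes by the trimmed mean of M-values (TMM, 1.02 per degree of freedom) and 3.91% with totals that leave out the 5 most abundant miRNAs (1.01). No p-value is given because the sum is over chosen rows.

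In the plot of summed counts against depth, 3 of the 85 libraries lay outside the central 95% of the Poisson counts around the pooled share. Library 55 lay above it, with 14 counts of 13453 (1041 CPM, 620 to 1746) where 2 to 12 were within the band. Library 63 lay below it with 4 counts of 22470, as did library 65, the deepest, with 7 of 30202. Counting error alone puts 2.53 of the 85 libraries outside these bands. Without library 55, the pooled level was 501 CPM and the chi-square 1.08 per degree of freedom.

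Single members varied about as much as counting error gives. Over the 28 members with counts, the chi-square per degree of freedom ran from 0.587 to 1.73 (median, 1.05), and over the 12 leading ones from 0.768 to 1.34 (median, 1.03), with miR-127-3p the highest of the 12. Such values from rows of few counts hold little information. The 100 other miRNAs with the same range of counts as the 12 leading members (14 to 105) had 0.667 to 3.16 (median, 1.12), so the members lay within the range of miRNAs of like abundance.

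**Figure D3:**
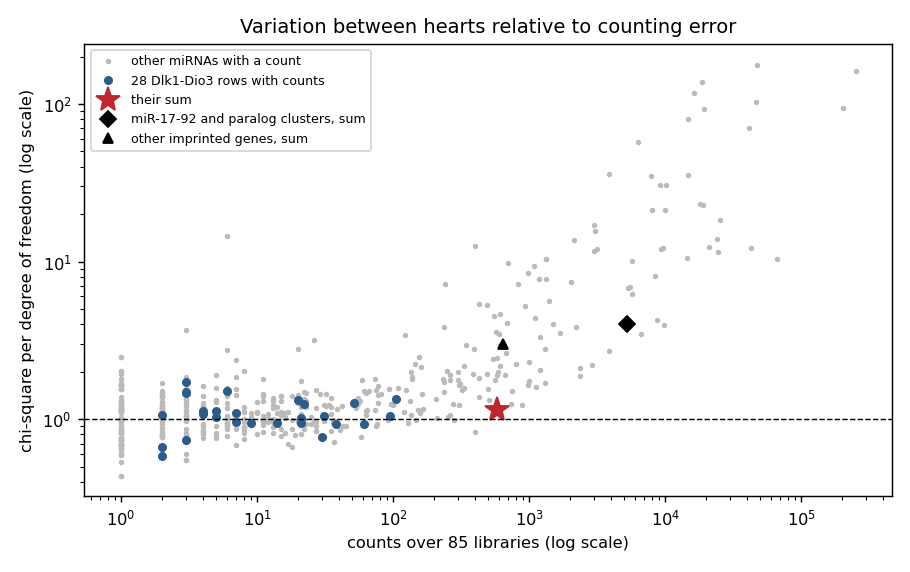
Chi-square per degree of freedom against library totals (vertical axis, log scale) against counts over 85 libraries (horizontal axis, log scale) for every miRNA with a count, with the 28 members, their sum and 2 other summed lists marked and a dashed line at 1, the value of counting error alone. The members lie around the line, the sum of the cluster (579 counts) sits at 1.15, and miRNAs of more counts sit higher. A sum averages over its rows, and the value rises with counts, so it does not rank the summed lists by their variation.

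The chi-square rises with counts, so other summed lists are compared by their coefficient of variation. The miR-17-92 cluster and its paralogs, known regulators of proliferation (14 rows, 5277 counts, led by miR-19b-3p with 1399), had a coefficient of variation of 22.1% (18.2% to 27.2%), an interval that overlaps that of the Dlk1-Dio3 sum. MiRNAs of other imprinted genes (9 rows, of which 2 had counts) summed to 642 counts, nearly all of miR-335-5p (615), which lies in Mest. That sum had a coefficient of variation of 51.7% (41.1% to 64.98%), above the interval of the Dlk1-Dio3 sum. Its level was 704 CPM over set A and 178 CPM over set B, with a coefficient of variation of 28.96% and 38.9% within them. The cardiomyocyte (9.17%), endothelial (11.2%) and smooth muscle (14.1%) marker lists were below the 14.7% of the Dlk1-Dio3 sum and within its interval. The fibroblast (31.6%), neuronal (47.5%), erythroid (50.7%), leukocyte (55.2%) and hepatocyte (157%) markers were above it. Of these, only the fibroblast interval (27.1% to 37.7%) overlapped that of the Dlk1-Dio3 sum. A sum averages over its rows, so a low value for a list does not show that its rows varied little. Single cardiomyocyte markers had 19.8% (miR-1a-3p, 202280 of the list's 262944 counts), 56.6% (miR-133a-3p), 60.7% (miR-208a-3p) and 36.6% (miR-499-5p). In the smooth muscle list miR-143-3p had 14.9% and miR-145a-5p 67.8%. In the endothelial list miR-126a-3p had 10.999% and miR-126a-5p 17.7%.

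A chi-square test of each miRNA against the library totals, with Benjamini-Hochberg adjustment over all miRNAs tested, asked which varied between hearts. Of the 93 miRNAs with a mean of 5 counts a library, 91 were called at an adjusted p under 0.05 (97.8%), and 0 of the 43 members had enough counts to be tested. With a mean of 1 count, where the approximation is rough, 125 of 146 were called (85.6%). Of the 2 members tested there, miR-127-3p was called (p = 0.0209, adjusted p = 0.0248) and miR-379-5p was not (adjusted p = 0.380). A call at this setting was usual for a miRNA in these libraries and is no mark of miR-127-3p.

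The libraries carry a library number and an animal number, which put them in the same order, so a trend with one is a trend with the other. In edgeR's quasi-likelihood test, 86 of 146 miRNAs with a mean of 1 count a library had a trend at an adjusted p under 0.05 (58.9%), 42 upward and 44 downward. On library totals, the scale of the CPM values, 97 were called (27 upward and 70 downward), and with the set as a covariate 39 were (23 upward and 16 downward). Of the 2 members tested, 0 were called, and 0 had an unadjusted p under 0.05, in edgeR as in DESeq2's Wald test. MiR-127-3p had a slope of -0.06 (SE, 0.06) in log2 per 10 libraries (adjusted p = 0.447), and miR-379-5p a slope of 0.10 (SE, 0.06; adjusted p = 0.144). Without a filter on low counts, 99 of 548 miRNAs were called (18.1%), and among the 28 members tested these were miR-411-5p (0.21, adjusted p = 0.0203) and miR-433-3p (-0.19, adjusted p = 0.0428), the latter on 3 counts in all.

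**Figure D4:**
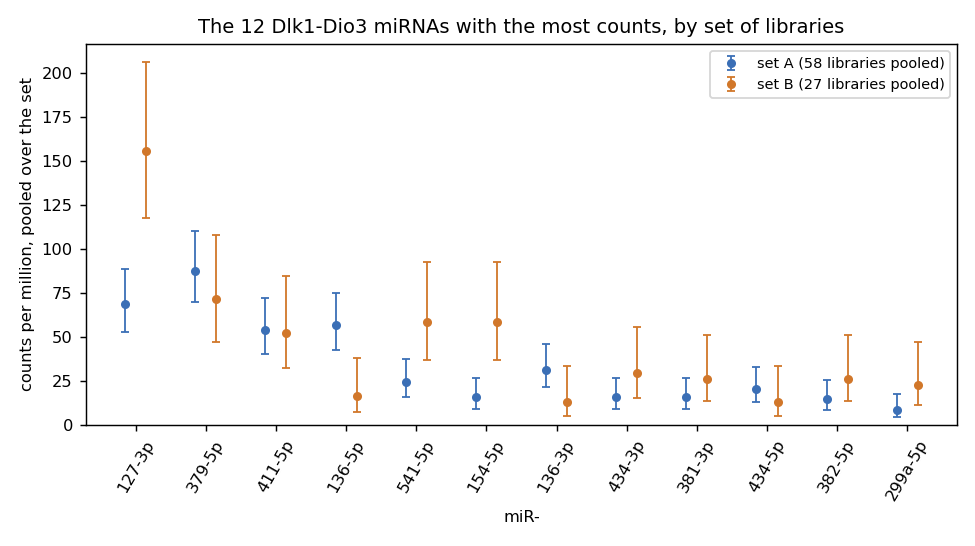
Pooled level in CPM of library totals (vertical axis) of the 12 members with the most counts (horizontal axis) in set A (58 libraries) and set B (27 libraries), with 95% Wilson intervals that cover counting error only. Intervals do not overlap for miR-127-3p (68.4 against 156 CPM), miR-136-5p (56.4 against 16.2) and miR-154-5p (15.6 against 58.4), and overlap for the other 9, a share near that of all miRNAs with as many counts (24.1% apart).

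Between the 2 sets of libraries, the intervals of 3 of the 12 leading members did not overlap. Among all 112 miRNAs with 14 to 105 counts, members included and none used for the sets, 27 did not overlap (24.1%). The members' share was thus that of other miRNAs of like counts. Among all 250 with at least 14 counts 144 did not (57.6%), but these include the miRNAs that defined the sets. MiR-127-3p was at 68.4 CPM (52.8 to 88.6) in set A and 156 CPM (117 to 206) in set B, and miR-154-5p at 15.6 CPM (9.11 to 26.7) and 58.4 CPM (36.9 to 92.3). MiR-541-5p was at 23.99 CPM (15.5 to 37.05) in set A and 58.4 CPM (36.93 to 92.3) in set B, intervals that just overlap. MiR-136-5p went the other way, with 56.4 CPM (42.4 to 74.9; 47 counts) in set A and 16.2 CPM (6.93 to 37.96; 5 counts) in set B. MiR-136-3p was at 31.2 CPM in set A and 12.97 CPM in set B, and the antisense miR-3071-5p and miR-3071-3p had 14 and 7 counts in set A against 1 and 0 in set B.

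On library totals, the levels of miR-379-5p (87.5 and 71.3 CPM) and of miR-411-5p (53.97 and 51.9 CPM) in the 2 sets lay within each other's intervals. With TMM effective library sizes they lay farther apart. MiR-379-5p was then at 97.2 in set A and 59.7 in set B (log2 difference, -0.70), and miR-411-5p at 59.9 and 43.4 (-0.46). On the log2 scale, set B minus set A was 1.19 for miR-127-3p, 1.90 for miR-154-5p and -1.80 for miR-136-5p. With TMM effective library sizes these were 0.78, 1.497 and -2.21, so the directions of these 3 did not rest on the scaling. MiR-127-3p and miR-136-5p, both from opposite Rtl1, thus differed in opposite directions. The 12 members within Mirg summed to 63.6 CPM in set A and 165 CPM in set B, and to 70.6 and 138 with TMM effective library sizes. Only 7 of the 12 had counts, and of the 104 counts miR-541-5p held 38 and miR-154-5p 31.

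The summed level of the cluster was 467 CPM (422 to 515) in set A and 616 CPM (535 to 710) in set B, and the libraries' values overlapped, from 0 to 899 CPM in set A (median, 467) and from 237 to 1041 CPM in set B (median, 595). This difference depended on the denominator. Scaled by TMM effective library sizes, the pooled levels were 518 and 516 CPM of the effective sizes, a log2 difference of -0.01 in place of 0.40. The 5 most abundant miRNAs held 55.8% of the counts in set A and 48.04% in set B. Totals without them gave a log2 difference of 0.17. Within the sets the chi-square of the sum was 1.21 per degree of freedom in set A and 0.731 in set B. Markers of some other cell types also had different levels in the sets. Fibroblast markers, nearly all miR-199a-3p, were at 7149 CPM in set A and 11844 CPM in set B. Leukocyte markers were at 17876 and 5526, and the hepatocyte marker miR-122-5p at 207 and 733. Levels lay closer together for cardiomyocyte (236254 and 213861 CPM), endothelial (65427 and 57946), smooth muscle (39859 and 40963) and erythroid markers (4309 and 3911). Markers were not left out of the abundant miRNAs that defined the sets, so differences in abundant markers are partly built in. Of the 3 neuronal markers, 2 had counts, 879 in all (0 to 36 a library, median, 9; miR-128-3p, 572), at 586 CPM in set A and 1265 CPM in set B, while the defining marker miR-124-3p was at 0. Their part in the levels of the members was not tested.

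The table listed 68 further miRNAs of the locus that are not members, mostly partner arms. Of them, 13 had counts, 87 in all, led by miR-376b-5p with 25 (0 to 3 a library). Adding them raised the level of the locus to 583 CPM, with 1.18 per degree of freedom.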

How the data were processed

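Total RNA of 85 hearts was made into QIAseq libraries and sequenced on a HiSeq. Per the study's methods and the submitters' processing notes, the authors mapped reads with HISAT2 2.0.6 to mm10 and counted them with HTSeq 0.13.5. The deposited table holds raw counts for each mature miRNA, with no normalization. Annotation, trimming, strand setting and use of molecular identifiers are not given in the sources used here. All count columns matched a library label.

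CPM used library totals. Levels have 95% Wilson intervals, floors are 3 counts. Variation was the chi-square of counts against totals, with its method-of-moments coefficient of variation. Trends with library number were fitted with edgeR 4.0.16 (TMM, quasi-likelihood; R 4.3.3) with Benjamini-Hochberg adjustment over all miRNAs tested. The 2 sets of libraries came from 2-means on the leading component of a principal component analysis of log2 CPM (prior count 2) over miRNAs kept by filterByExpr (minimum count 10, minimum total 15). Alternatives were DESeq2 1.42.0, other denominators, filters, covariates and subsets of libraries. Scripts used Python 3.11.15, numpy 2.4.6, scipy 1.17.1, pandas 2.3.3 and matplotlib 3.10.9, and tests were checked on simulated data. Over 3570 pairs of libraries the chi-square was at least 1.29 per degree of freedom, so none was counted as a repeat.

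Named miRNAs are the 12 members with the most counts, hairpins with 2 member arms, members at 0, called members, and the leading row of other lists. Others were named after their values were seen. The members, lists and tests were chosen with earlier results of these data known. Sequences and hairpin coordinates are from RefSeq (GRCm38.p6) and host genes from the GENCODE annotation of GRCm38. The p-values of the trend tests measure the spread between libraries, 1 per heart. Those of the chi-square test set the counts against counting error alone.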

Additional observations from a re-analysis of the deposited data

How the results depend on the processing

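No paired analysis was possible because the samples form 1 group. The summed level, 507 CPM, was 1095 CPM with totals that leave out the 5 most abundant miRNAs, by construction of the smaller total. Its chi-square of 1.15 per degree of freedom was 0.731 in set B alone, and the cause was not tested. The log2 difference of the sum between the sets, 0.40, was -0.0063 with TMM sizes and 0.17 without the 5 most abundant miRNAs, both chosen after seeing the data. The count of members called as varying went from 0 to 1 with a mean of 1 count a library, and that of members with a trend from 0 to 2 with no filter, since more members were tested. MiR-127-3p's slope of -0.06 became 0.00076 with the set as a covariate and 0.10 (0.0955) in set B. In set B the 3p share was 100% for miR-337 (1 count) and 69.2% for miR-434 (13 counts), and the r between the ends was -0.180, which was chosen after seeing the data. Leaving out library 55, adding the antisense arms of miR-136 and the shares of all miRNAs with intervals apart were also added then. The level otherwise ran from 415 CPM without miR-127-3p to 616 CPM in set B, outside its counting interval. These shifts were less than the SD of 214 CPM between libraries. That SD includes the counting error of single libraries and does not measure the spread between hearts alone. The coefficient of variation fell from 14.7% to 5.34% with TMM sizes and 3.91% without the 5 most abundant miRNAs. The r between the ends lay on either side of 0, from -0.068 to 0.060 elsewhere. The filterByExpr setting left no member to test.

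Depth was the limit throughout, with a median of 6 member counts a library, and differences in 1 member between single hearts were not detectable.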

Other observations

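Among lists outside the locus, miR-122-5p, the hepatocyte marker, had 399 counts and varied between hearts, with 12.6 as its chi-square per degree of freedom. The imprinted miR-675, miR-483, miR-296 and miR-298 arms were at 0 in all libraries.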
